A study of Arabidopsis thaliana with 4 samples.

Results

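Transcripts of 10 nuclear genes of photosynthetic carbon fixation were followed in seedlings of Arabidopsis thaliana: the Rubisco small subunit genes RBCS1A (AT1G67090), RBCS1B (AT5G38430), RBCS2B (AT5G38420) and RBCS3B (AT5G38410), Rubisco activase RCA (AT2G39730), phosphoribulokinase PRK (AT1G32060), chloroplast FBPase (AT3G54050), SBPase (AT3G55800), and the chloroplast GAPDH subunit genes GAPA1 (AT3G26650) and GAPB (AT1G42970). They were chosen by locus for their place in the pathway, with earlier results of these data known. All 10 were found among the 33602 genes of each deposited table and among the 19474 genes with enough reads for a test. The series searches for phloem peptides encoded by small open reading frames with a possible part in flowering time. Its RNA-seq experiment set a sORF1511 overexpressor against Col-0 (WT), both as whole seedlings aged 12 days, with 2 libraries per genotype, each from a pool of 5 seedlings. The overexpressor is a single line, number 7 in the design text, so what is due to the line and what to the transgene cannot be told apart. The promoter that drives the transgene is not given in the sources used here, and WT is not described there as carrying an empty vector. The labels call the libraries biological replicates without saying whether the pools were grown apart.

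Rubisco fixes carbon dioxide onto ribulose bisphosphate in the chloroplast stroma. Its catalytic large subunit is encoded by the chloroplast genome, while a small family of nuclear RBCS genes encodes the small subunit, whose messages are among the most abundant in green tissue and depend on light. The Calvin cycle enzymes then reduce the product with GAPDH, regenerate the acceptor through FBPase and SBPase, and return it to Rubisco through PRK. Several of these enzymes are switched on in the light through thioredoxin, and CP12 proteins bind GAPDH and PRK into an inactive complex in the dark.

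Totals were 18547136 and 25740234 estimated reads in the overexpressor libraries and 13974460 and 24508631 in the WT libraries, numbered 1 and 2 in each genotype. Chloroplast-encoded genes took 1.13% and 0.995% of reads in the overexpressor, against 30.8% in WT replicate 1 and 1.42% in WT replicate 2, so WT replicate 1 stands apart and held 9541345 reads of nuclear genes. Levels are therefore given as CPM, reads relative to the library size after scaling by TMM, a method that sets libraries side by side by their typical gene. Comparisons between genes use TPM, which accounts for gene length, rescaled to the same sum over nuclear genes in each library. Exact 95% binomial intervals on the shares of reads given here spanned at most 0.0242 percentage points to either side and cover counting error only.

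On the CPM scale, both overexpressor libraries lay above both WT libraries for 7 of the 10 genes, by modest amounts, and below both for GAPA1, while 57.1% of all genes tested did not overlap between the genotypes in one direction or the other. The count depended on the scale. On nuclear TPM, which puts the median log2 difference of all genes tested at -0.18 in place of -0.01, it was 3 above (RBCS1B, RBCS2B and RBCS3B) and 1 below (GAPA1), beside 15.1% above and 47.1% below among all genes tested. RBCS1A, RCA, FBPase and GAPB overlapped there, and with library size only RCA and GAPA1 overlapped. The largest differences were those of RBCS1B, RBCS3B and RBCS2B, at 1.38-fold, 1.38-fold and 1.34-fold. None of the 10 passed the threshold, set at 0.05 for the p that edgeR's quasi-likelihood F test gave after adjustment by Benjamini and Hochberg over all genes tested. That call was rare in these libraries, with 0.139% of all genes tested called higher and 0.0103% called lower. At an unadjusted p below 0.05 stood 3 of the 10, RBCS1B, RBCS2B and RBCS3B, against 21.7% of all genes tested. DESeq2 called the same 3 genes higher, against 4.41% of the genes it tested called higher and 1.48% called lower, and limma-voom called 0.

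The small subunit genes are highly alike, which bears on how their reads can be assigned. RBCS1A is on chromosome 1, and the other RBCS genes lie next to each other on chromosome 5 in the RefSeq annotation of TAIR10.1. The deposited tables name no genome build, so sequences were read by locus from that reference and no coordinates are given. Over a coding length of 546 bases, 95.4% of positions were identical in RBCS1B, RBCS2B and RBCS3B. RBCS1B and RBCS3B shared an unbroken run of 233 identical bases, whereas RBCS1A shared at most 67, with RBCS2B. Of all 50-base windows, 51.9% of those in RBCS1B, 38.0% in RBCS2B and 42.5% in RBCS3B occurred letter for letter in another RBCS coding sequence, against 3.64% in RBCS1A. The authors' split of reads among the chromosome 5 copies is therefore less certain than the level of RBCS1A or the sum of the copies. The stretch of 90 coding bases in which those copies differ most, counted 61 to 150 from the start codon on the minus strand in each gene, is shown first because it is where reads can tell them apart. Capitals mark bases that differ among the chromosome 5 copies and, in RBCS1A, bases that differ from RBCS2B.
RBCS1B: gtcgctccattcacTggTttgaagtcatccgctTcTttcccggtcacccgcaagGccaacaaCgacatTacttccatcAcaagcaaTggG
RBCS2B: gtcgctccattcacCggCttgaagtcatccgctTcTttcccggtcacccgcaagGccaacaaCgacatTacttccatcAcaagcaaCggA
RBCS3B: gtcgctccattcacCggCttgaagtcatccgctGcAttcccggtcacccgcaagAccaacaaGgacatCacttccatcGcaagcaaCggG
RBCS1A: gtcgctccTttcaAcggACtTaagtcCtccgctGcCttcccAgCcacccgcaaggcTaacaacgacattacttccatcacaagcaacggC

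The same capitals are used for the stretch of 90 coding bases in which the chromosome 5 copies are most alike, bases 352 to 441, where 1 position differs among them. A read that falls inside it cannot tell RBCS1B from RBCS3B.
RBCS1B: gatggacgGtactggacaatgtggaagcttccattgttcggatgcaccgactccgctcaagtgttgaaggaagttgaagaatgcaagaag
RBCS2B: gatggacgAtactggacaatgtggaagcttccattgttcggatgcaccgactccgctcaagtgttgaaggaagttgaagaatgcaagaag
RBCS3B: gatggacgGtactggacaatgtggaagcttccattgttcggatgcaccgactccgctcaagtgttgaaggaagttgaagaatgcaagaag
RBCS1A: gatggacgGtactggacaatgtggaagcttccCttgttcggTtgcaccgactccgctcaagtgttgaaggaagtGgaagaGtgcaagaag

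The 10 genes covered a wide range of levels. RBCS1A ranked 2 among all genes by mean CPM, and RBCS3B 6, RCA 8, RBCS2B 13 and RBCS1B 14. On the nuclear TPM scale RBCS1A stood at 30184 and 28774 in the overexpressor and 29574 and 25913 in WT, above RBCS3B at 19232 and 18886 in the overexpressor and 15959 and 15125 in WT. RBCS1B followed at 9856 and 9090.1 TPM in the overexpressor and 7818 and 7565 TPM in WT, and RBCS2B at 9417.5 and 8121 TPM in the overexpressor and 7069.7 and 7696 TPM in WT. RBCS1B and RBCS2B, as neighbours in this order, overlapped across libraries, as did RBCS2B and RCA, which had 7502 and 6945 TPM in the overexpressor and 6283 and 7489 TPM in WT. A gap separated these genes from the enzymes of the cycle. GAPB had 1867 and 1718 TPM in the overexpressor and 1599 and 1722 TPM in WT, and GAPA1 had 1449.9 and 1349 TPM in the overexpressor and 1734.8 and 1734.5 TPM in WT. PRK had 1025 and 955 TPM in the overexpressor and 940.5 and 1102 TPM in WT, overlapping SBPase, which had 879 and 807 TPM in the overexpressor and 839.5 and 946 TPM in WT. FBPase was the lowest at 710.3 and 716 TPM in the overexpressor and 608 and 745 TPM in WT. GAPB and GAPA1 also overlapped as neighbours, whereas RBCS1A, RBCS3B and FBPase each stood clear of their neighbours over the 4 libraries.

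**Figure D1:**
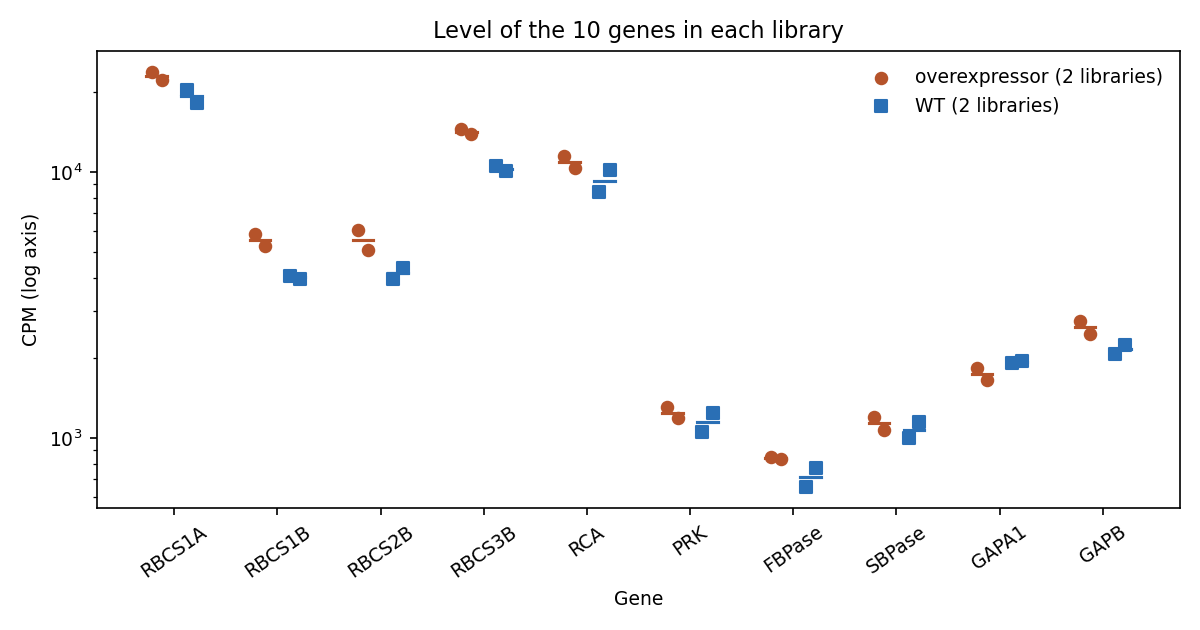
Level of each of the 10 genes in every library, as CPM on a log axis, with overexpressor libraries as circles left of WT libraries as squares and a line at each genotype's mean. RBCS1B, RBCS2B and RBCS3B show a gap between the genotypes, PRK and SBPase overlap, and GAPA1 is the gene whose overexpressor libraries lie below WT.

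The small subunit genes encode the part of Rubisco made in the cytosol and imported into the chloroplast. RBCS1B had 5865 and 5261 CPM in the overexpressor against 4055 and 3979 CPM in WT. Both overexpressor libraries were above both WT libraries, which 28.7% of all genes tested also showed, and the WT libraries lay close together. Its log2 fold change of overexpressor over WT was 0.47 ± 0.12 (SE, n = 2 each), with a 95% interval of 0.18 to 0.76 that is not adjusted for the number of genes, and an edgeR adjusted p of 0.136. RBCS3B had 14522 and 13875 CPM in the overexpressor and 10521 and 10101 CPM in WT, again without overlap. Its log2 fold change was 0.46 ± 0.12, with an interval of 0.16 to 0.76 and an edgeR adjusted p of 0.140. RBCS2B had 6059 and 5081 CPM in the overexpressor and 3967 and 4377 CPM in WT. The overexpressor libraries were again the higher ones, but they stood further apart, and the log2 fold change was 0.42 ± 0.14, with an interval of 0.06 to 0.77 and an edgeR adjusted p of 0.188. Without WT replicate 1 the log2 fold changes were 0.50 for RBCS1B, 0.50 for RBCS3B and 0.36 for RBCS2B. DESeq2's adjusted p was 0.000214 for RBCS1B, 2.94e-05 for RBCS3B and 0.0205 for RBCS2B. Since the copies share much sequence, their reads were also added up before the fit, which gave a log2 fold change of 0.45 ± 0.13 and an edgeR adjusted p of 0.159.

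RBCS1A, the small subunit gene outside the chromosome 5 group, had 23925 and 22184 CPM in the overexpressor and 20467 and 18159 CPM in WT. The genotypes did not overlap in CPM, but the gap was narrow beside the spread within each, and they overlapped on nuclear TPM. Its log2 fold change was 0.26 ± 0.14 (SE, n = 2 each), with an interval of -0.09 to 0.60 and an edgeR adjusted p of 0.328. Leaving out a WT library moved this value to 0.36 without WT replicate 1 and 0.17 without WT replicate 2. The 4 RBCS genes together took 5.28% and 4.99% of nuclear reads in the overexpressor and 4.57% and 4.19% in WT. The other 6 genes took 2.04% and 1.89% in the overexpressor and 1.77% and 2.004% in WT, which overlapped.

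The make-up of the RBCS transcripts does not depend on how libraries are scaled. RBCS1A held 43.9% and 44.4% of RBCS TPM in the overexpressor and 48.9% and 46.0% in WT. RBCS3B held 28.0% and 29.1% in the overexpressor and 26.4% and 26.9% in WT. RBCS1B held 14.35% and 14.01% in the overexpressor and 12.9% and 13.4% in WT. For these genes the genotypes did not overlap, with RBCS1A the one whose share was lower in the overexpressor. The exact two-sided permutation test gave p = 0.333, the smallest p that 2 against 2 libraries allow. Shares within a library add up to the whole, so a lower share of RBCS1A means a higher share of the others together. The shares of RBCS1B and RBCS3B also rest on the less certain split of reads among the chromosome 5 copies. RBCS2B held 13.7% and 12.5% in the overexpressor and 11.7% and 13.7% in WT, where the genotypes overlapped and the same exact permutation test gave p = 0.667. The difference for RBCS1A, a mean of 44.1% in the overexpressor against 47.5% in WT, was -3.34 percentage points. It was -1.88 points without WT replicate 1.

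**Figure D2:**
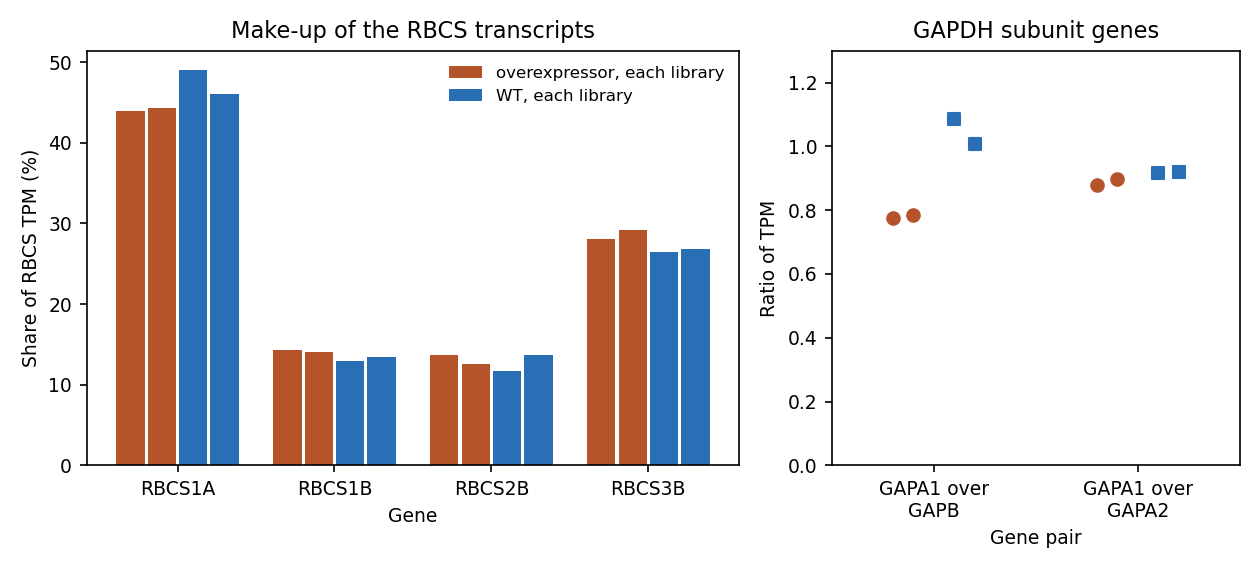
Left, share of RBCS TPM held by each RBCS gene in every library, with the 2 overexpressor bars left of the 2 WT bars. Right, TPM ratios between chloroplast GAPDH subunit genes, in which GAPA1 over GAPB lies at 0.777 and 0.785 in the overexpressor and 1.08 and 1.01 in WT, and GAPA1 over GAPA2 lies at 0.878 and 0.898 in the overexpressor and 0.916 and 0.921 in WT, also without overlap.

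RCA encodes the activase that removes inhibitory sugar phosphates from Rubisco's active site. RCA had 11519 and 10372 CPM in the overexpressor and 8442 and 10165 CPM in WT. In CPM the genotypes were separated only by the small gap between overexpressor replicate 2 and WT replicate 2, and WT replicate 1 was the low library. Its log2 fold change was 0.23 ± 0.15 (SE, n = 2 each), with an interval of -0.14 to 0.61 and an edgeR adjusted p of 0.394, and it was 0.12 without WT replicate 1 and 0.38 without WT replicate 2. RCA thus differed from RBCS1B and RBCS3B in how far its value rested on a single WT library. The ratio of RBCS TPM to RCA TPM was 9.16 and 9.34 in the overexpressor and 9.62 and 7.52 in WT, with overlap.

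Of the enzymes that regenerate the acceptor, PRK and SBPase overlapped between the genotypes and FBPase did not in CPM. PRK, which makes ribulose bisphosphate, had 1308 and 1185 CPM in the overexpressor and 1050.1 and 1243 CPM in WT, with overlap and a log2 fold change of 0.12 ± 0.13 (edgeR adjusted p = 0.606). SBPase, a phosphatase found in the Calvin cycle and not in glycolysis, had 1201 and 1073 CPM in the overexpressor and 1004 and 1144 CPM in WT, with overlap and a log2 fold change of 0.08 ± 0.12 (edgeR adjusted p = 0.713). Their intervals, not adjusted for the number of genes, ran from -0.20 to 0.44 and from -0.22 to 0.39. Differences within those ranges were therefore not excluded with 2 libraries a genotype. Without WT replicate 1 the values were 0.02 for PRK and 0.005 for SBPase, and without WT replicate 2 they were 0.25 and 0.18. FBPase, which acts on the branch towards starch as well as the cycle, had 849 and 833 CPM in the overexpressor and 653 and 768 CPM in WT. Its overexpressor libraries were close to each other and above both WT libraries in CPM, though not on nuclear TPM, at a log2 fold change of 0.24 ± 0.11, an interval of -0.05 to 0.53 and an edgeR adjusted p of 0.281. That value was 0.14 without WT replicate 1 and 0.37 without WT replicate 2. In WT, RCA, PRK, FBPase and SBPase were each higher in replicate 2 than in replicate 1, by 0.19 to 0.27 on the log2 scale, as was RBCS2B by 0.14, whereas RBCS1A, RBCS1B and RBCS3B were lower there.

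The chloroplast GAPDH genes had values on opposite sides of WT. GAPB, whose subunit carries the regulatory tail, had 2754 and 2466 CPM in the overexpressor and 2064 and 2246 CPM in WT, without overlap in CPM but with overlap on nuclear TPM, at a log2 fold change of 0.28 ± 0.12 with an interval of -0.02 to 0.57 and an edgeR adjusted p of 0.250. GAPA1, which encodes the partner subunit, had 1833 and 1659 CPM in the overexpressor and 1919 and 1939.7 CPM in WT. Both overexpressor libraries of GAPA1 lay below both WT libraries in CPM, as in 28.4% of all genes tested, at a log2 fold change of -0.14 ± 0.11 with an interval of -0.41 to 0.12 and an edgeR adjusted p of 0.460. That value was -0.07 without overexpressor replicate 2 and -0.02 with scaling by library size only. GAPA2, the second gene for the A subunit, had 1921 and 1703 CPM in the overexpressor and 1950.3 and 1979 CPM in WT, at a log2 fold change of -0.12 ± 0.11 (edgeR adjusted p = 0.564), which became 0.004 with scaling by library size only. Between GAPA1 and GAPA2 coding sequences were 76.7% identical with no shared run over 29 bases, so shared reads are of less concern here than for RBCS. The TPM ratio of GAPA1 to GAPB, which does not depend on scaling, was 0.777 and 0.785 in the overexpressor and 1.08 and 1.01 in WT. The genotypes did not overlap in this ratio, and the difference on the log2 scale was -0.42, or between -0.37 and -0.47 when each library was left out in turn. The exact two-sided permutation test gave p = 0.333, the smallest possible. Of the 6 ratios between members or GAPA2 that were computed, 5 did not overlap between the genotypes and gave that same p by the exact permutation test, namely GAPA1 to GAPB, GAPA1 to GAPA2, PRK to SBPase, SBPase to FBPase and RCA to PRK. Among all genes tested, 57.1% did not overlap as single genes. The share for ratios of other gene pairs was not computed, so the count of ratios is a description only. The ratio of GAPA1 to GAPB was singled out after its values were seen.

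**Figure D3:**
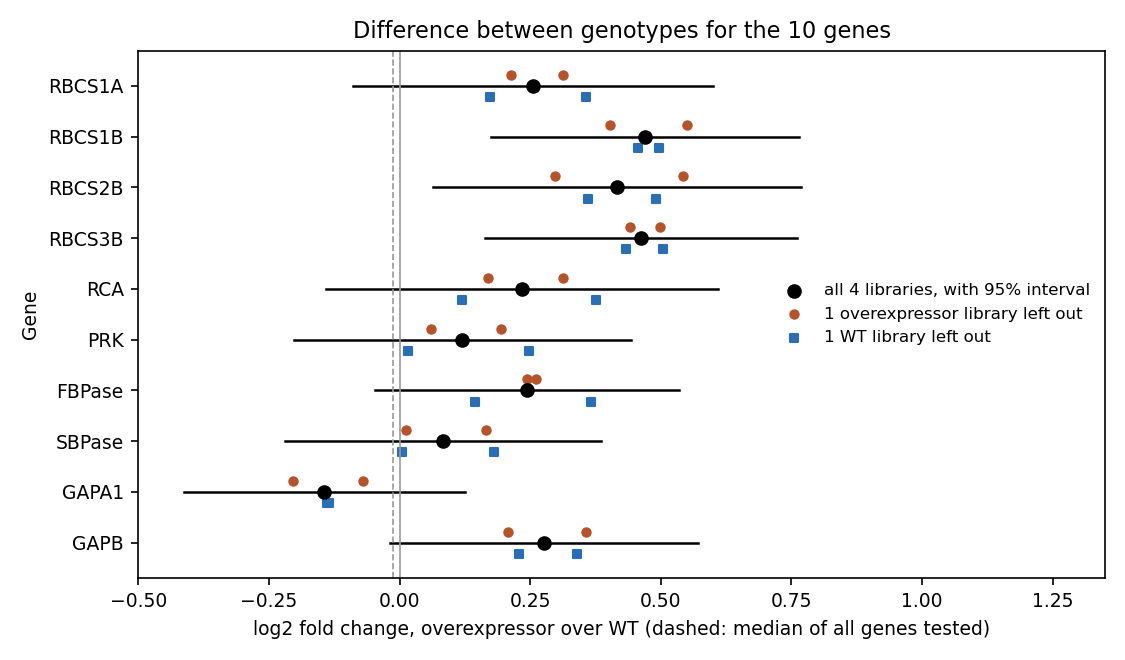
log2 fold change of overexpressor over WT for each gene, with black points and lines for the estimate and its unadjusted 95% interval from all 4 libraries and small marks for the value with 1 library left out. The intervals of RBCS1B, RBCS2B and RBCS3B lie above 0, and the marks of RCA, PRK and FBPase spread most when a WT library is left out.

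As a group the 10 genes had a median log2 fold change of 0.25, beside -0.01 over all genes tested, with 9 values above 0 and 1 below. On CPM, overexpressor libraries were above both WT libraries for 7 genes and below both for 1, beside 28.7% and 28.4% of all genes tested, and on nuclear TPM for 3 and 1. The median difference of the 10 genes on nuclear TPM was 0.08, beside -0.18 over all genes tested. The 10 genes were measured in the same 4 libraries, so these counts are not independent observations. The median was 0.19 without WT replicate 1 and 0.35 without WT replicate 2. Within genotypes, their median log2 difference between pools was -0.15 for overexpressor replicate 2 over overexpressor replicate 1 and 0.13 for WT replicate 2 over WT replicate 1.

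The counts of the lists and markers that follow stand beside shares of all genes tested of 21.7% at an unadjusted p below 0.05, 28.7% with both overexpressor libraries above WT and 28.4% below, and 4.41% called higher and 1.48% lower by DESeq2. Other Calvin cycle genes and CP12 were listed by pathway, 15 in all and all tested. In edgeR's test 0 passed the threshold, 6 had an unadjusted p below 0.05, DESeq2 called 5 and limma-voom 0. Without overexpressor replicate 1 the list's median was 0.13. From all libraries the median log2 fold change was 0.20, and for 10 genes both overexpressor libraries were above both WT libraries and for 1 below. CP12-1 (AT2G47400), a small linker protein that holds GAPDH and PRK inactive in the dark, had 883 and 873 CPM in the overexpressor and 556 and 617 CPM in WT. The overexpressor libraries were nearly equal and well above WT, at a log2 fold change of 0.58 ± 0.10 and an edgeR adjusted p of 0.0938. Named after their values were seen, CP12-2 had 325 and 308 CPM in the overexpressor and 172 and 236 CPM in WT, and CP12-3 had 6.87 and 6.64 CPM in the overexpressor and 3.40 and 4.88 CPM in WT. In each CP12 gene the genotypes did not overlap, and the log2 fold changes, 0.58 to 0.68, were the largest of the list. The plastid aldolase genes FBA2 and FBA1 had log2 fold changes of 0.21 ± 0.13 and 0.34 ± 0.11, with edgeR adjusted p of 0.404 and 0.188.

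Genes for Rubisco assembly and repair, 11 in all, had a median of 0.09, with 0 past the threshold in edgeR, 4 at an unadjusted p below 0.05, 2 called by DESeq2 and 0 by limma-voom. That median was 0.20 without WT replicate 1 and 0.05 without WT replicate 2. The most abundant per length were CPN20 and CPN60B1, at 0.06 ± 0.09 and 0.06 ± 0.09, the first of them at -0.0019 without WT replicate 2. CPN60B1 is a subunit of the chloroplast chaperonin that folds the large subunit, and CPN20 is its co-chaperonin. RAF2, an assembly factor, stood at 0.09 ± 0.09. BSD2, a chaperone of the large subunit in Arabidopsis, had 209 and 209 CPM in the overexpressor and 264 and 167 CPM in WT, so its WT libraries lay on either side, and its log2 fold change of -0.04 ± 0.22 changed sign between settings. In thioredoxin control, 0 of 9 genes passed in edgeR, 4 had an unadjusted p below 0.05, DESeq2 called 1 and limma-voom 0. TRXM4 and TRXM2, chloroplast m-type thioredoxins, had log2 fold changes of 0.38 ± 0.11 and 0.30 ± 0.09, and TRXF1, an f-type thioredoxin that activates FBPase, 0.26 ± 0.08. TRXM1 had 0.10 ± 0.08. The thioredoxin list had a median of 0.10, which leaving out WT replicate 1 changed to 0.23 and leaving out WT replicate 2 to 0.18.

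Photorespiration recovers the product of Rubisco's reaction with oxygen. Of its 10 genes, 0 passed in edgeR, 1 had an unadjusted p below 0.05, and DESeq2 and limma-voom each called 0. The median was 0.17, with 0.24 ± 0.10 for the glycolate oxidase GOX1, 0.11 ± 0.10 for the serine hydroxymethyltransferase SHM1, 0.28 ± 0.10 for GLDT, a subunit of glycine decarboxylase, and 0.22 ± 0.10 for the aminotransferase AGT1. Among 8 cytosolic and glycolytic counterparts, 0 passed in edgeR, 1 had an unadjusted p below 0.05, DESeq2 called 1 and limma-voom 0. Their median, 0.10, became 0.02 on leaving out WT replicate 1 and 0.16 on leaving out WT replicate 2. Values were 0.14 ± 0.10 for GAPC2 and 0.08 ± 0.11 for GAPC1, the cytosolic GAPDH genes, 0.04 ± 0.10 for cTPI, the cytosolic triose phosphate isomerase, and 0.16 ± 0.09 for cyFBP, the cytosolic fructose bisphosphatase. GAPC1 and cTPI were at or below 0 without WT replicate 1, at -0.00099 and -0.039. The differences between these lists and the 10 genes were not tested.

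**Figure D4:**
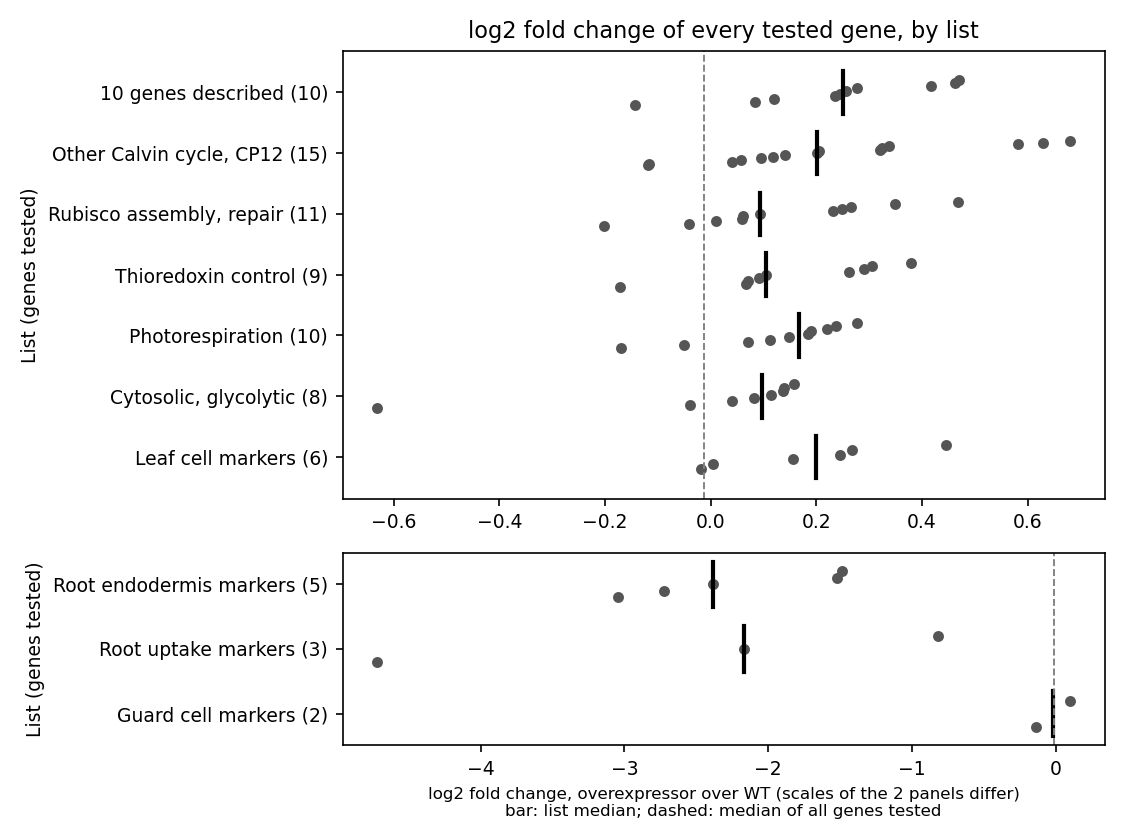
log2 fold change of overexpressor over WT for every tested gene, by list, with a bar at each list's median and a dashed line at the median of all genes tested. The upper panel holds the 10 genes, the pathway lists and leaf markers, with medians from 0.09 to 0.25, and the lower panel, on a wider scale, the root and guard cell markers, with root endodermis at -2.39.

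The pools were whole seedlings, in which a different share of green cells and a different amount of RNA per cell cannot be told apart. Photosynthetic leaf cell markers (LHCB1.3, LHCB2.1, LHCB3, PSAD1, PSBO1 and CA1) summed to 37708 and 35203 CPM in the overexpressor and 30415 and 33716 CPM in WT. They were abundant in every library, and their median log2 fold change, 0.20, lay near that of the 10 genes, with 5 of 6 values above 0 and 0 past the threshold in edgeR, 1 at an unadjusted p below 0.05, 1 called by DESeq2 and 0 by limma-voom. Root endodermis markers (CASP1 to CASP5, PER64, ESB1 and MYB36) summed to 6.03 and 7.33 CPM in the overexpressor and 20.3 and 34.3 CPM in WT. All 5 of these 8 that could be tested were below 0, at log2 fold changes from -3.04 to -1.49. In edgeR 0 passed the threshold and 4 had an unadjusted p below 0.05, while DESeq2 called 3 and limma-voom 0. CASP5, not tested in edgeR, had 0 reads in the overexpressor and in WT replicate 1, and 4 in WT replicate 2. Root uptake markers (IRT1, PHT1;1 and NRT2.1) summed to 26.97 and 14.2 CPM in the overexpressor and 31.5 and 72.9 CPM in WT. Of these 3, 0 passed the threshold in edgeR, 2 had an unadjusted p below 0.05, and 1 was called by DESeq2 and 0 by limma-voom. Root hair markers (COBL9, EXPA7 and EXPA18), with 0 of 3 tested, summed to 0.156 and 0.510 CPM in the overexpressor and 0.358 and 7.45 CPM in WT. Guard cell markers (MYB60 and FAMA) summed to 20.5 and 18.7 CPM in the overexpressor and 19.8 and 20.5 CPM in WT, with overlap. On the CPM scale, summed leaf markers were thus higher in the overexpressor, as were most of the 10 genes. Summed endodermis and uptake markers were lower, and summed root hair markers overlapped. The uptake difference lay mostly in WT replicate 2. IRT1 had 5 reads in WT replicate 1 and 338 in WT replicate 2, against 0 and 12 in the overexpressor. Single leaf markers had log2 fold changes from -0.02 to 0.45. On nuclear TPM, 3 of the 10 genes lay above WT. The leaf markers were split there. LHCB1.3, the most abundant, overlapped, at 20473 and 20067 TPM in the overexpressor and 19363 and 21486 TPM in WT. LHCB3 lay below both WT libraries, at 5565 and 5221 TPM in the overexpressor and 5782 and 6292 TPM in WT, as did LHCB2.1. PSAD1, PSBO1 and CA1 lay above both WT libraries. The part of these markers in the differences above was not tested.

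Among 10938 other nuclear genes with a mean of at least 10 CPM, the 5 whose pattern over the 4 libraries was nearest to the mean pattern of the 10 genes were AT5G14240, OTU5 (AT3G62940), ARC3 (AT1G75010), AT4G19150 and HTB4 (AT5G59910). Likeness was the root mean square distance of centred log2 CPM, which was 0.0030 to 0.0080 for these genes. Among the members themselves it was 0.020 for GAPB, the nearest to the mean, and 0.20 for GAPA1, the farthest. With 4 libraries many genes follow any given pattern, so the nearness is a description only.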

How the data were processed

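Stranded, poly(A)-enriched Illumina libraries were made from 200 ng of RNA each, per the labels' protocols. For each library the authors deposited a gene table of estimated counts, TPM and 2 lengths in bases, plain and effective, per the file headers. Between 96.9% and 97.3% of estimated counts were whole within 0.001. The quantifier, the build and the gene models used for it are not stated in the sources read here. DESeq2 is named, with no version, in the submitters' processing notes. Names come from RefSeq (TAIR10.1), matched by locus; the chloroplast gene for the large subunit is not paired with a named locus there or in the tables and is not reported.

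Rounded estimated counts went into edgeR 4.0.16, run in R 4.3.3, with filterByExpr (minimum count 10, minimum total 15), TMM, glmQLFit, glmQLFTest and Benjamini-Hochberg adjustment over all genes kept. SE is the coefficient divided by the square root of F. DESeq2 1.42.0, limma 3.58.1 and the settings named in the closing section were alternatives. The tests were checked on simulated counts with 200 changed genes, at folds of 2, 4 and 16. There edgeR called 50.7% of the genes changed 2-fold and 97.0% of those changed 4-fold. Smaller folds, such as those of the 10 genes, were not simulated, so the check does not cover them. Coding sequences were aligned with Biopython 1.88, taking for each RBCS gene the isoform nearest in length to that of RBCS2B.

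Members, lists and tests were chosen with earlier results of these data known. The text names all members, list genes past the threshold and the 4 most abundant per list by TPM, and the 5 nearest patterns. Chi-square over its degrees of freedom was 8.80 between the overexpressor libraries and 380.1 between the WT libraries, more than counting noise gives. P-values rest on the spread between these pools, which may be partly technical, but not on each gene's own spread alone. The tests draw a gene's spread towards that of other genes. For RBCS3B the SE was 0.12 with all genes and 0.07 with organelle genes left out, and the edgeR adjusted p was 0.140 and 0.0615.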

Additional observations from a re-analysis of the deposited data

How the results depend on the processing

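All 10 genes kept the sign of their log2 fold change in every setting run, and none was called except RBCS1B, RBCS2B and RBCS3B, 3 genes, by DESeq2. The number of genes called over the whole table, 27 higher and 2 lower, depended on the setting. It was 912 higher and 307 lower with DESeq2, 0 and 0 with limma-voom, 570 and 239 with library size only, 163 and 21 without organelle genes, 305 and 57 without the low-count filter, and 65 and 10 at a minimum of 1 CPM in 2 libraries. With limma-trend it was 250 and 24 on log2(TPM + 1) and 176 and 18 on log2(TPM + 0.1). Leaving out each library in turn gave 0 to 1189 higher and 0 to 1014 lower: leaving out WT replicate 1 gave 240 and 140, leaving out WT replicate 2 gave 1189 and 1014, leaving out overexpressor replicate 1 gave 1 and 0, and leaving out overexpressor replicate 2 gave 0 and 0. A lone library was assumed to vary like the other genotype. The causes were not tested.

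With the replicate number as a block, 329 genes were called higher and 43 lower, 0 of the 10 among them, and their median was 0.25. The labels do not pair the pools, and same-numbered deviations correlated at 0.032 across genes, so the numbers were not taken as pairs.

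The median of the 10 genes was 0.37 with library size only, which moved the median of all genes by 0.12, 0.32 with each limma-trend setting, and 0.19 to 0.35 when each library was left out. The count of the 10 with overexpressor libraries above WT, 7, was 6 with library size only and 3 on nuclear TPM. The shares of all genes tested were 28.7%, 25.5% and 15.1% in turn. The count below, 1, was 0 with library size only, beside 28.4% and 13.5% of all genes tested. These settings were added after seeing the data. The difference in RBCS share, in percentage points, ranged over -4.80 to -1.88 for RBCS1A, 0.743 to 1.24 for RBCS1B, -0.555 to 1.41 for RBCS2B and 1.36 to 2.47 for RBCS3B when each library was left out. The log2 fold change of BSD2 changed sign to 0.016 with limma-voom, 0.14 with library size only and 0.058 with each limma-trend setting, and lay between -0.34 and 0.34 when each library was left out. GAPA2 changed sign to 0.0042 with library size only. Leaving out each library gave -0.00099 to 0.18 for GAPC1, -0.039 to 0.14 for cTPI and -0.0019 to 0.14 for CPN20. Of the other single-gene and list values, 717 stayed the same, 37 moved and 7 gained a call. For single genes the same meant direction and call kept. For lists it meant a count close to the main count, or a median within the spread of the WT replicates. The GAPA1 to GAPB settings were chosen after seeing the data. The 10 genes lay far above the level of 3 reads, at most 0.268 CPM. Their errors therefore reflect the spread among 2 pools per genotype, drawn towards that of other genes, more than read depth.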

Other observations

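Some pathway genes stood outside their lists in value, and they were named after their values were seen. RBCX2, a Rubisco assembly chaperone, had 97.5 and 101 CPM in the overexpressor and 73.6 and 70.4 CPM in WT. CPN60A1, a chaperonin subunit of the same list, had 472 and 441 CPM in the overexpressor and 535 and 515 CPM in WT. Within Rubisco assembly, genes therefore lay on both sides, at edgeR adjusted p of 0.0978 and 0.268. GAPCP1, a plastid GAPDH of glycolysis, had 26.4 and 22.9 CPM in the overexpressor and 33.2 and 42.7 CPM in WT, at a log2 fold change of -0.63 ± 0.16 and an edgeR adjusted p of 0.139. PGK1 and PGK2, phosphoglycerate kinases, had log2 fold changes of 0.32 ± 0.10 and 0.32 ± 0.08.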
